A study of Mus musculus with 8 samples.

Results

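A group of 10 genes of cAMP signalling in striatal neurons was followed here in striatal tissue of R6/2 mice and their wild-type controls. They are the phosphatase inhibitors Ppp1r1b (DARPP-32) and Ppp1r1a (inhibitor-1), the phosphatase-targeting subunit Ppp1r16b, the cAMP-regulated phosphoproteins Arpp19, Arpp21 and Ensa, the tyrosine phosphatase Ptpn5 (STEP), and Prkaca, Prkar1b and Prkar2b, which encode subunits of protein kinase A (PKA). Every probe set that the platform annotation gives to 1 of these 10 genes was kept, which came to 27 of the 45037 probe sets tested and 10 of 18193 named genes. Of these genes, 8 had more than 1 probe set, and no probe set was dropped for low signal.

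Striatal RNA of 4 R6/2 and 4 wild-type mice was measured, 1 array for each, all labelled as females of 12 weeks (85 days) on a C57Bl/6 / CBA background. R6/2 mice carry the start of the human huntingtin gene with an expanded CAG repeat, driven by the human gene's own promoter, and the wild-type mice lack it. The transgene is of human sequence, so the genotype labels were not checked from it. The wild-type mice are numbered 42, 48, 54 and 63 and the R6/2 mice 64, 65, 70 and 78, and the design text names 1 more wild-type mouse that was not analysed here. Each mouse has its own number, so the spread is that between animals.

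Dopamine and adenosine receptors of medium spiny neurons, the output neurons that make up most of the striatum, act through cAMP and PKA. PKA holds its catalytic subunits inactive on regulatory subunits until cAMP binds. Once phosphorylated by PKA, DARPP-32 and inhibitor-1 block protein phosphatase 1 (PP1), so PKA both phosphorylates targets and holds off the enzyme that would reverse it. ARPP-19 and ENSA block protein phosphatase 2A (PP2A) after phosphorylation by the kinase Greatwall, ARPP-21 binds calmodulin when phosphorylated by PKA, and STEP removes tyrosine phosphates from ERK kinases, Fyn and NMDA receptors and is itself switched off by PKA. DARPP-32, ARPP-21 and STEP are known for their high level in the striatum.

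The arrays measured transcripts, so the sequence shown is that around gene starts. Windows from 250 bases before to 50 after a start were at hand for 8 of the 10 genes (RefSeq, GRCm38.p6), 25 windows in all. The window listed first is printed for 4 genes whose transcripts were lower together in R6/2 mice and for Ensa, the relative of Arpp19 that did not pass the test. Capitals mark the letters TGACG on either strand, the core of the site that the PKA-activated factor CREB binds. Each line runs 5′ to 3′ on the gene's own strand.
Arpp19, chr9:75037364-75037663, + strand: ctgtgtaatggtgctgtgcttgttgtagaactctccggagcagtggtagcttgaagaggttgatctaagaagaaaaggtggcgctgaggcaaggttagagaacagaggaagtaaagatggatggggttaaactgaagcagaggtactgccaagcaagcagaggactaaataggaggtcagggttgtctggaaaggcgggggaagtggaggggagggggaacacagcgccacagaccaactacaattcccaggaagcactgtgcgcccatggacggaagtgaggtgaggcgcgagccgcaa
Arpp21, chr9:112233673-112233972, - strand: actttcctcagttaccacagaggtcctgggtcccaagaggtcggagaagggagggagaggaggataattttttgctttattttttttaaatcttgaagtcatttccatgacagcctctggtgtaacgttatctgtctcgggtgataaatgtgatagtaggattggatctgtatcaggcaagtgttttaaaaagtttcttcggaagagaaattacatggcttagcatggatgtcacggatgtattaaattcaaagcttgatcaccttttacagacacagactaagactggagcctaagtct
Ptpn5, chr7:47133635-47133934, - strand: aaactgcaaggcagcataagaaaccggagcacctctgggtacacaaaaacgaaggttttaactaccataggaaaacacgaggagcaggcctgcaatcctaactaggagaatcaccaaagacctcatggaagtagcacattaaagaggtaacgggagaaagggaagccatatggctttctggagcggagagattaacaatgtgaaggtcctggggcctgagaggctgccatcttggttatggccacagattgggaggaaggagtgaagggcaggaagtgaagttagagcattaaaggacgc
Ppp1r16b, chr2:158666483-158666782, + strand: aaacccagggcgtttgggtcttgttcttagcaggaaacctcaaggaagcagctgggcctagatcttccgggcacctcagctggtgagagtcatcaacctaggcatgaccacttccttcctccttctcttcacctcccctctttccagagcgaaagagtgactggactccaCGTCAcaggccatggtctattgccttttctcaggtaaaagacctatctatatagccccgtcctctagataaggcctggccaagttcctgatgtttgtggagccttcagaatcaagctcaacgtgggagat
Ensa, chr3:95624730-95625029, + strand: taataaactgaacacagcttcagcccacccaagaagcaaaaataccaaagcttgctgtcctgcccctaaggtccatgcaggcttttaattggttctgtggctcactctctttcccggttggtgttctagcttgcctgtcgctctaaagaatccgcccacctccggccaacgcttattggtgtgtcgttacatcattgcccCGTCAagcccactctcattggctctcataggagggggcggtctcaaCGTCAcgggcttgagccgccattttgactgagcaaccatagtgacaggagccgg
Among the printed windows the letters occur once in Ppp1r16b and at 2 places in Ensa, and they do not occur in those of Arpp19, Arpp21 and Ptpn5. Over all their windows, 3 of 9 of Arpp21 held them, 0 of 2 of Arpp19 and 0 of 2 of Ptpn5. Windows of a gene can overlap, and 2 of the 3 of Arpp21 hold the same site, which is thus counted in both. Altogether the letters were in 7 of the 25 windows, against 20.81% of all 32851 windows of this length. The full palindrome TGACGTCA, which contains the shorter letters, was in 0 of the 25 windows and in 1.79% of all. A match is a match of letters and says nothing on binding.

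Transcripts of the phosphatase inhibitors, of Arpp19, Arpp21 and STEP were lower in R6/2 striatum, and no probe set of Ensa or of the 3 PKA subunit genes passed as lower. Of the 27 probe sets, 11 were lower in R6/2 mice, 1 was higher and 15 did not pass (limma, Benjamini-Hochberg adjusted p under 0.05 over all probe sets). Over all 45037 probe sets, 4.59% passed as lower and 5.54% as higher. When wild-type mouse 42 was left out, whose RNA control signals stood apart, 9 of the 27 were lower and 0 higher. The 11 lower probe sets belong to 6 genes, Ppp1r1b, Ppp1r1a, Ppp1r16b, Arpp19, Arpp21 and Ptpn5, and in each of the 6 the brightest probe set was among them. The 1 higher probe set belongs to Prkar1b, and none of Ensa, Prkaca and Prkar2b passed. All 4 R6/2 mice lay below all 4 wild-type mice in 11 probe sets, against 7.07% of all probe sets tested, and above them in 3, against 9.05%. The median difference was -0.18 over the 27 probe sets and -0.017 over all probe sets (log2, R6/2 minus wild-type). In a piece of tissue, fewer cells of a type and less RNA per cell cannot be told apart.

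**Figure D1:**
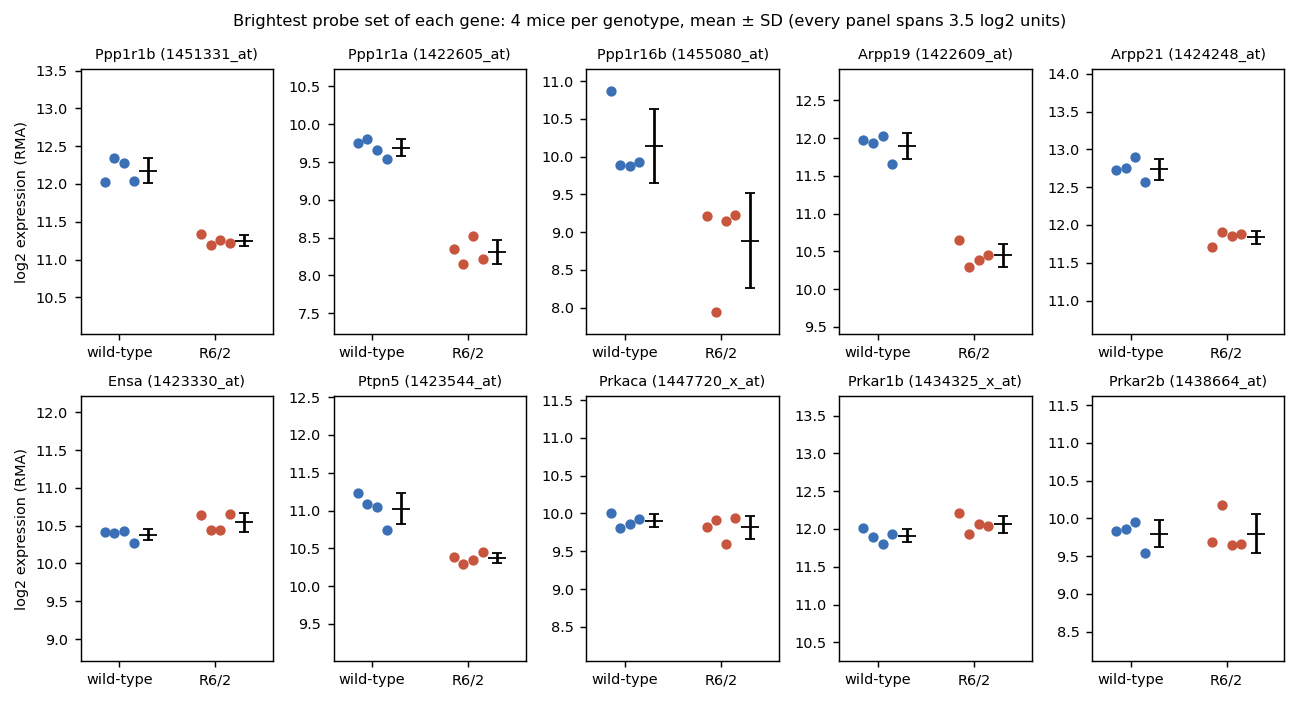
Log2 expression (RMA) of the brightest probe set of each of the 10 genes, 1 point per mouse, with mean and SD at the side; every panel spans the same number of log2 units, so heights compare between panels. The R6/2 points lie below all wild-type points in Ppp1r1b, Ppp1r1a, Ppp1r16b, Arpp19, Arpp21 and Ptpn5, and overlap or lie above in Ensa, Prkaca, Prkar1b and Prkar2b.

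Before the genes are taken in turn, 3 features of the arrays are given that return beside single results. Array medians lay between 5.08 and 5.13 and correlations between arrays between 0.983 and 0.994. Wild-type mouse 42 stood apart in the control probe sets that compare the 3′ with the 5′ end of a transcript: its Gapdh difference was 1.19 (log2), against 0.23 to 0.52 in the other 7 mice, and its Actb difference was 2.40, against 1.37 to 1.58. In R6/2 mice the Gapdh difference was 0.23 to 0.35, below all wild-type mice, and its part in the results was not tested beyond leaving out mouse 42. The mean level of 10 cortical projection neuron markers was 5.79 to 7.02 in the wild-type group and 5.36 to 6.43 among R6/2 mice, highest in mouse 42 and lowest in mouse 65, and 1 of the 10, Slc30a3, passed the test, as lower. Another limit is that 4 of the 10 were dim, no brighter than probe sets of Y-linked genes reach in these female mice. This mean level is the cortical covariate used below. Markers of medium spiny neurons were present on all arrays, with mean levels of 10.83 to 11.15 in wild-type and 10.18 to 10.24 in R6/2 mice, and 7 of 8 were lower. Of 7 astrocyte markers 2 were lower, of 5 oligodendrocyte markers 1, of 6 microglia markers none, of 7 ependymal and choroid plexus markers 1 and of 4 interneuron markers 2, and none of these was higher. The shares over all genes were 5.13% lower and 7.29% higher.

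Ppp1r1b encodes DARPP-32, the PP1 inhibitor that dopamine regulates through PKA. Its single probe set read 12.03, 12.35, 12.28 and 12.04 in wild-type mice 42, 48, 54 and 63. In R6/2 mice 64, 65, 70 and 78 it read 11.34, 11.19, 11.26 and 11.22. Every R6/2 mouse lay below every wild-type mouse, with SDs of 0.067 in R6/2 and 0.16 in wild-type mice (n = 4 each). The mean fell from 12.17 to 11.25, a difference of -0.92 ± 0.091 (log2, SE, limma adjusted p = 0.000520) or 1.89-fold.

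Ppp1r1a encodes inhibitor-1, the relative of DARPP-32 that blocks the same phosphatase and is found in many tissues. It read 9.75, 9.80, 9.66 and 9.54 in wild-type mice and 8.35, 8.15, 8.52 and 8.22 in R6/2 mice, so that the highest R6/2 value was well below the lowest wild-type value. The fall of 1.38 ± 0.097 (limma adjusted p = 0.000146) amounted to 2.60-fold, and by p-value the probe set ranked 15 among all 45037. The 95% interval of the fall in Ppp1r1a (-1.59 to -1.16) did not overlap that in Ppp1r1b (-1.12 to -0.72), while the difference between the genes was not tested.

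Ppp1r16b encodes TIMAP, a subunit that brings PP1 to the cell membrane and is best known from endothelial cells. The bright probe set 1455080_at read 10.87, 9.89, 9.88 and 9.92 in wild-type mice and 9.22, 7.94, 9.15 and 9.23 in R6/2 mice. The groups did not overlap, but 1 mouse in each stood far from the other 3: wild-type mouse 42 was the highest and R6/2 mouse 65 the lowest. The mean difference was -1.26 ± 0.31 (limma adjusted p = 0.0308), 2.39-fold, with the widest interval of the 11 lower probe sets (-1.95 to -0.56). Without wild-type mouse 42 the difference was -1.01 and did not pass (adjusted p = 0.0550), and it did not pass without mouse 48 (0.0581) or R6/2 mouse 70 (0.0572) either.

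The mice that stood apart in Ppp1r16b were also those at the ends of the cortical marker range, mouse 42 at 7.02 and mouse 65 at 5.36. Among the other wild-type mice the cortical level ran from 5.79 to 6.76, while Ppp1r16b read 9.88 to 9.92. Among the other R6/2 mice it ran from 5.55 to 6.43, while Ppp1r16b read 9.15 to 9.23. With the cortical level as a covariate the difference was -0.76 (limma adjusted p = 0.252). Endothelial markers moved in the same direction between the genotypes: 3 of 4 were lower in R6/2 mice (5.13% of all genes), and their mean level was 7.30 to 7.49 in wild-type against 6.83 to 7.10 in R6/2 mice. These were Cldn5, a tight junction gene, the growth factor receptor gene Flt1 and the transporter gene Slco1a4, while Pecam1, dim at 4.28 to 4.43 in wild-type mice, did not pass. The part of either marker group in the Ppp1r16b result was not tested beyond the covariate. A second probe set of Ppp1r16b, 1425414_at, was dim, at 4.27 to 4.65 in wild-type and 4.12 to 4.38 in R6/2 mice, within the range of 13 probe sets of Y-linked genes in these female mice (2.77 to 5.37), and differed by -0.17 ± 0.11 (adjusted p = 0.357).

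**Figure D2:**
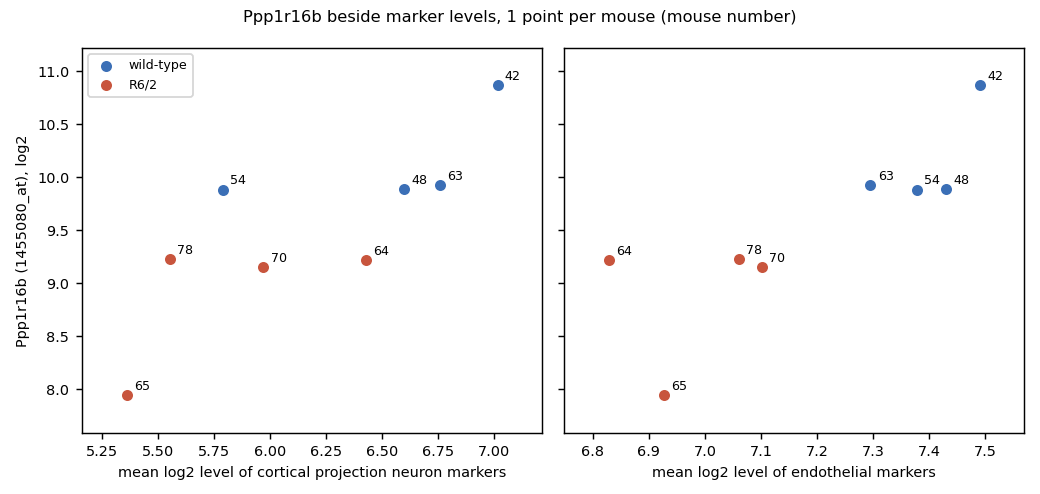
Log2 level of Ppp1r16b (probe set 1455080_at) against the mean log2 level of 10 cortical projection neuron markers (left) and of 4 endothelial markers (right), 1 labelled point per mouse. Mouse 42 is highest on both axes of both panels, and mouse 65 is lowest in Ppp1r16b and in the cortical level, but not in the endothelial level. The other mice of each genotype differ in cortical level but lie close together in Ppp1r16b.

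ARPP-19 and ENSA are close relatives that inhibit PP2A, and Arpp19 passed as lower on 2 of its 3 probe sets while Ensa passed on neither of its own. Arpp19 probe set 1422609_at read 11.98, 11.93, 12.02 and 11.65 in wild-type and 10.65, 10.30, 10.38 and 10.46 in R6/2 mice, with no overlap between the groups. It fell by 1.45 ± 0.11 (limma adjusted p = 0.000173), 2.73-fold, which was the largest fall among the 27 probe sets. Probe set 1422608_at fell by 1.06 ± 0.10 (adjusted p = 0.000480), from 9.87, 10.17, 10.27 and 10.18 to 9.23, 8.97, 9.02 and 9.05. The third Arpp19 probe set, 1450685_at, did not pass. It read 10.99, 10.64, 10.40 and 10.23 in wild-type mice and 10.29, 10.28, 10.36 and 10.16 in R6/2 mice. There the groups overlapped, and the difference was -0.29 ± 0.14 (limma adjusted p = 0.241, interval -0.61 to 0.026). Without wild-type mouse 42, the highest, it was -0.15 (adjusted p = 0.406). All 3 are listed under the same sequence accession, and their positions within the transcript were not used here.

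Ensa had 2 probe sets, both with higher means in R6/2 mice and neither past the test. Probe set 1423330_at read 10.41, 10.40, 10.43 and 10.27 in wild-type and 10.64, 10.44, 10.44 and 10.65 in R6/2 mice, so that the groups just failed to overlap, with a difference of 0.16 ± 0.081 (limma adjusted p = 0.244). The other, 1428620_at, differed by 0.32 ± 0.13 (adjusted p = 0.154) with overlapping groups, and was called with array weights (0.40, adjusted p = 0.0462) and with the cortical level as a covariate (0.60, adjusted p = 0.0180).

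Arpp21 encodes ARPP-21, a calmodulin-binding and RNA-binding phosphoprotein of striatal neurons, and 3 of its 5 probe sets passed as lower. Probe set 1424248_at read 12.73, 12.75, 12.91 and 12.56 in wild-type mice and 11.71, 11.90, 11.85 and 11.88 in R6/2 mice, a fall of 0.90 ± 0.087 (limma adjusted p = 0.000493) or 1.87-fold. Probe set 1451280_at, from the same sequence accession, fell by 1.18 ± 0.12 (adjusted p = 0.000643), from 11.17, 11.39, 11.71 and 11.59 to 10.26, 10.10, 10.38 and 10.40. In both, every R6/2 mouse was below every wild-type mouse.

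The other 3 probe sets of Arpp21 gave smaller differences. Probe set 1442121_at passed narrowly, at -0.52 ± 0.14 (limma adjusted p = 0.0451), although the groups overlapped: wild-type mouse 54 read 8.28, below R6/2 mouse 70 at 8.36. It no longer passed when any 1 mouse other than wild-type mouse 54 was left out (adjusted p up to 0.119), nor with the cortical level as a covariate (-0.33, adjusted p = 0.317). Probe set 1419028_at read 9.06, 8.93, 8.51 and 8.74 in wild-type and 8.87, 8.57, 8.79 and 8.50 in R6/2 mice, a difference of -0.12 ± 0.13 with an interval of -0.41 to 0.17 (adjusted p = 0.613). The dim probe set 1440429_at lay at 5.19 to 5.88 in wild-type and at 4.92 to 5.16 in R6/2 mice, lower in all 4 R6/2 mice without passing (-0.40 ± 0.13, adjusted p = 0.0935).

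Unequal change within a gene was tested by subtracting each other probe set from the brightest one in every mouse and comparing the genotypes by exact permutation (2-sided, 70 arrangements of the mice). None of the 17 pairs passed after adjustment over the pairs, and 6 reached the smallest p the design allows, 0.0286, which gave an adjusted p of 0.0810. At that smallest p no pair could pass alone, since passing needed more pairs at it than the 6. The lack of passing pairs therefore does not show equal change. In those 6 pairs the mice of the genotypes did not overlap. Arpp19 gave the widest of them, with a fall that was 1.15 larger (log2) in 1422609_at than in 1450685_at. A second was Arpp21 1424248_at against 1419028_at, at 0.78. The pair of Ppp1r16b was another, and its second probe set lies near background. The part of low signal in that pair was not tested. The other 3 were Arpp19 1422609_at against 1422608_at, Ptpn5 1423544_at against 1425131_at and Prkar1b 1434325_x_at against 1416753_at.

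**Figure D3:**
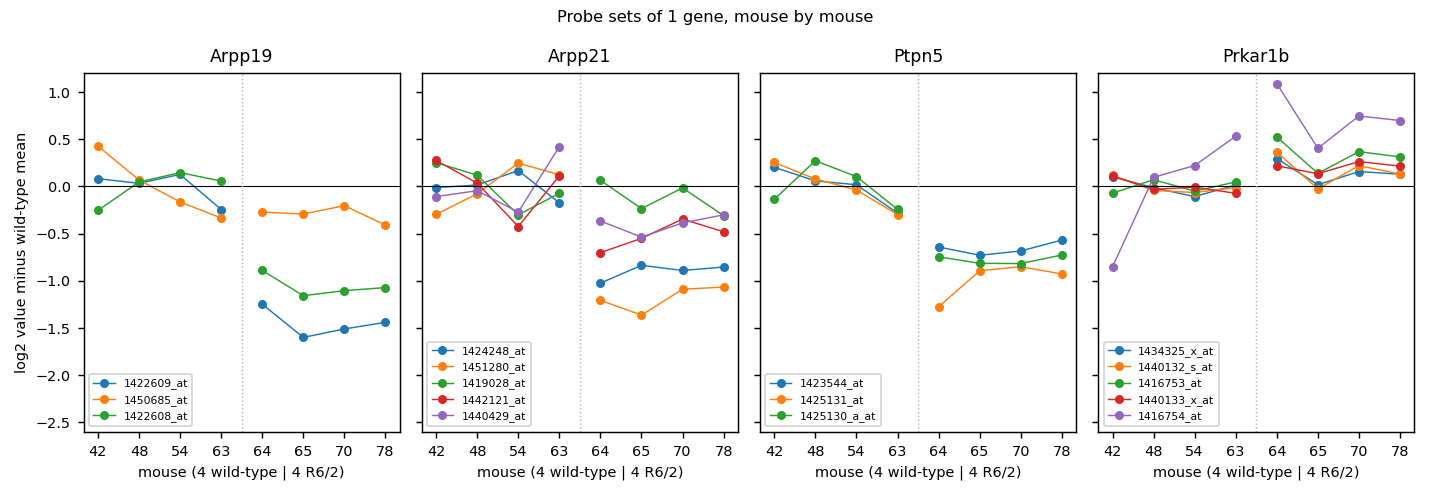
Log2 value minus the wild-type mean of the same probe set, for every probe set of Arpp19, Arpp21, Ptpn5 and Prkar1b, 1 point per mouse; lines join the points of a probe set within a genotype. In Arpp19 1450685_at and Arpp21 1419028_at the genotypes overlap, while the brightest probe set of Arpp19, Arpp21 and Ptpn5 separates them.

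Ptpn5 encodes STEP, the striatal-enriched tyrosine phosphatase, and was lower on all 3 of its probe sets. Probe set 1423544_at read 11.23, 11.08, 11.04 and 10.74 in wild-type mice and 10.38, 10.30, 10.34 and 10.46 in R6/2 mice, a fall of 0.66 ± 0.10 (limma adjusted p = 0.00427) or 1.57-fold. Probe set 1425131_at read 9.12, 8.94, 8.82 and 8.56 against 7.59, 7.97, 8.01 and 7.93, and fell by 0.99 ± 0.13 (adjusted p = 0.00213), 1.98-fold. The third, 1425130_a_at, read 8.43, 8.84, 8.67 and 8.32 against 7.82, 7.75, 7.75 and 7.84, and fell by 0.78 ± 0.11 (adjusted p = 0.00273). No R6/2 mouse reached a wild-type value on any of the 3. Among the wild-type mice, mouse 63 was the lowest each time.

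Of the 10 probe sets of the 3 PKA subunit genes, 1 passed. Prkaca, the gene of the catalytic subunit C-alpha, read 10.01, 9.81, 9.87 and 9.92 in wild-type mice and 9.82, 9.91, 9.59 and 9.94 in R6/2 mice on 1447720_x_at, with overlapping groups. The suffix of this probe set marks probes that can also match other transcripts. The difference of -0.086 ± 0.091 had an interval of -0.29 to 0.12 (limma adjusted p = 0.614). On 1450519_a_at the difference was -0.0092 ± 0.069 with an interval of -0.16 to 0.14 (adjusted p = 0.954). A miss of the threshold does not show equal levels, and the intervals give the sizes of change that these data allow.

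Prkar2b, the gene of RII-beta, a regulatory subunit that binds A-kinase anchors and is abundant in brain, had 3 probe sets, and none passed. Probe set 1438664_at read 9.84, 9.86, 9.95 and 9.55 in wild-type and 9.69, 10.18, 9.65 and 9.66 in R6/2 mice, with R6/2 mouse 65 far above the other R6/2 mice and above every wild-type mouse. The difference was -0.0025 ± 0.13 (interval -0.30 to 0.29, limma adjusted p = 0.994). The others, 1456475_s_at and 1430640_a_at, differed by -0.18 and 0.19, with adjusted p-values of 0.343 and 0.174. The suffix of 1456475_s_at marks probes that can also match other transcripts.

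Prkar1b, the gene of the brain regulatory subunit RI-beta, had higher means in R6/2 mice on all 5 of its probe sets, and 1 of the 5 passed. Probe set 1416753_at read 10.54, 10.68, 10.56 and 10.66 in wild-type and 11.13, 10.75, 10.98 and 10.92 in R6/2 mice, with no overlap and a rise of 0.34 ± 0.090 (limma adjusted p = 0.0417) or 1.26-fold. It passed in only 1 of the 8 fits that left out a mouse, the one without R6/2 mouse 65, and otherwise had adjusted p-values of 0.0598 to 0.104. It also missed with the cortical level as a covariate (0.45, limma adjusted p = 0.0523) and with no moderation (adjusted p = 0.0965). The probe sets 1434325_x_at, 1440132_s_at and 1440133_x_at differed by 0.15, 0.17 and 0.21, and their suffixes mark probes that can also match other transcripts. On 1416754_at the difference was 0.74 ± 0.26 (adjusted p = 0.106), where wild-type mouse 42 read 7.32 and the other wild-type mice 8.27, 8.39 and 8.70; without mouse 42 it was 0.45 (adjusted p = 0.113). Mouse 42 is the array with the large 3′ to 5′ control differences, whose part in this value was not tested.

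**Figure D4:**
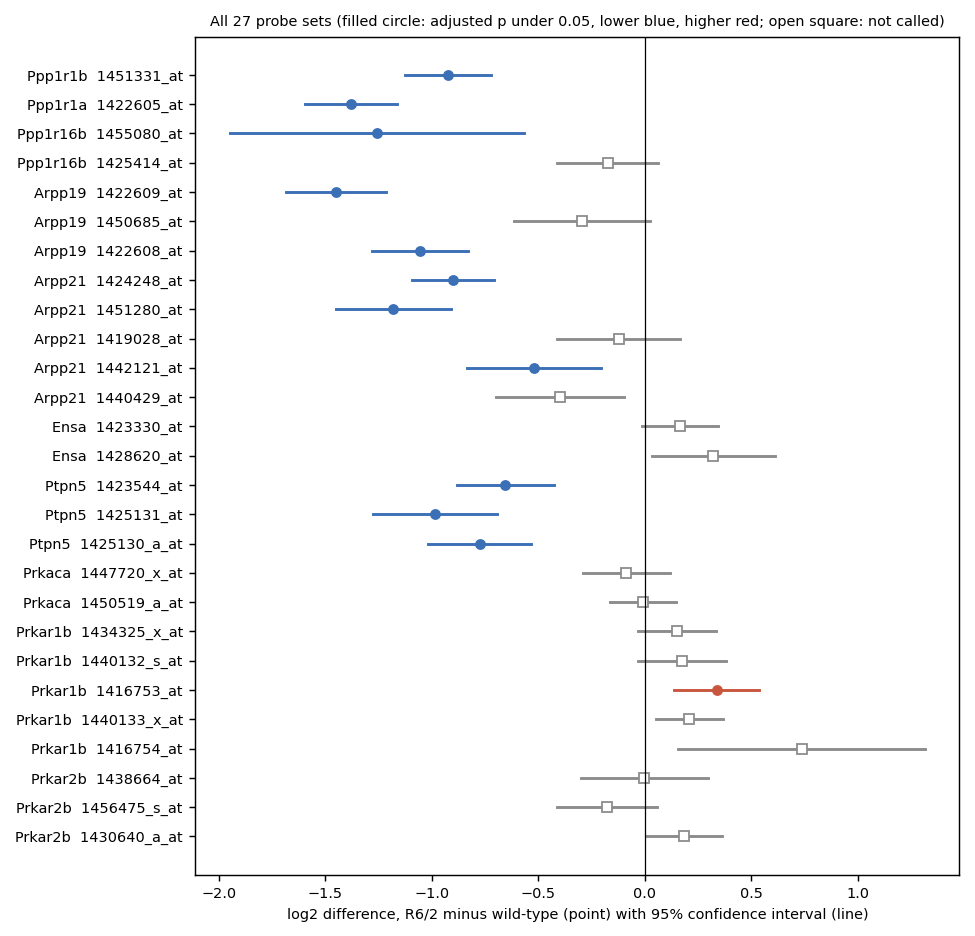
Log2 difference, R6/2 minus wild-type, with its 95% interval (limma) for all 27 probe sets, grouped by gene; filled points passed the adjusted test. The falls lie in Ppp1r1b, Ppp1r1a, Ppp1r16b, Arpp19, Arpp21 and Ptpn5, down to -1.45, and the 1 rise is Prkar1b at 0.34.

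The remaining PKA subunit genes were higher in R6/2 mice. All 3, by their brightest probe sets, passed as higher and in each the R6/2 mice lay above all wild-type mice. Over all 18193 genes, 7.29% passed as higher and 5.13% as lower. Prkacb, the gene of catalytic subunit C-beta, read 11.49, 11.52, 11.55 and 11.36 in wild-type and 11.80, 11.93, 11.78 and 11.76 in R6/2 mice, a rise of 0.34 ± 0.074 (limma adjusted p = 0.0183). Prkar1a, the gene of RI-alpha, rose by 0.33 ± 0.074 (adjusted p = 0.0215) and Prkar2a, the gene of RII-alpha, by 0.38 ± 0.091 (adjusted p = 0.0261). With the cortical level as a covariate Prkacb and Prkar1a no longer passed (0.28 and 0.27, adjusted p = 0.138 and 0.153), while Prkar2a did. Prkar1a missed the threshold in 3 and Prkar2a in 5 of the 8 fits that left out a mouse, with adjusted p-values up to 0.0606 and 0.0754. Further probe sets passed in the same direction, 1 of Prkar1a at 0.67 and 1 of Prkar2a at 0.38. Another of Prkar2a passed at 0.54 but is dim, no brighter than Y-linked probe sets reach in these mice.

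The PKA inhibitor genes went separate ways. Pkia, the gene of PKI-alpha, rose from 9.70, 9.82, 9.90 and 9.48 to 10.16, 10.54, 10.29 and 10.26, by 0.59 ± 0.11 (limma adjusted p = 0.0103). Pkig, the gene of PKI-gamma, fell from 9.87, 9.53, 9.72 and 9.52 to 9.16, 8.80, 8.99 and 9.17, by 0.63 ± 0.11 (adjusted p = 0.00743). The suffix of that Pkig probe set, 1434820_s_at, marks probes that can also match other transcripts. Pkib did not pass. In both genes that passed, the second probe set passed in the same direction. With the cortical level as a covariate neither passed (Pkia 0.41, adjusted p = 0.0942, and Pkig -0.55, adjusted p = 0.0686), nor did they with no moderation. Of 13 A-kinase anchor genes, which place PKA near its targets, 1 was lower and none higher (all genes: 5.13% lower and 7.29% higher). Akap5, the anchor of PKA and calcineurin at synapses, fell by 0.62 ± 0.14 (limma adjusted p = 0.0214), while its other 2 probe sets did not pass. It missed the threshold in 4 of the 8 fits that left out a mouse (adjusted p up to 0.0651).

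Some genes of the phosphatases that the inhibitors act on passed. Of 21 measured PP1 genes 4 were lower, 1 higher and 16 did not pass. The shares over all 18193 genes were 5.13% lower and 7.29% higher. Ppp1ca, a catalytic subunit of PP1, fell by 0.54 ± 0.084 (limma adjusted p = 0.00436) with no overlap between the groups. Ppp1r3c, which brings PP1 to glycogen, fell by 0.50 ± 0.080. Its second probe set, 1425631_at, gave 0.17 and did not pass. Wild-type mouse 42 read 4.06 there against 6.39 to 6.54 in the other wild-type mice. Without that mouse the difference was -0.42 (limma adjusted p = 0.0181), a fit chosen for this probe set after its values were seen. Ppp1r9a, the actin-binding PP1 subunit neurabin, fell by 0.35 ± 0.084, with its other 4 probe sets also lower. Its brightest probe set missed the threshold in 5 of the 8 fits that left out a mouse (adjusted p up to 0.0820). Of 15 PP2A and Greatwall genes 1 was lower and 3 higher. The PP2A genes Ppp2r3a, a regulatory subunit, and Ppp2r1b, a scaffold subunit, rose by 0.39 and 0.31, and Ppp2r2a, which encodes a B55 subunit of the PP2A form that ARPP-19 and ENSA inhibit, fell by 0.34 ± 0.084 (adjusted p = 0.0291). With the cortical level as a covariate the 3 differences were 0.33, 0.29 and -0.35, with larger standard errors. None of them passed there (limma adjusted p of 0.0995, 0.138 and 0.129 in that order). Ppp2r1b and Ppp2r2a each missed in 5 of the 8 fits that left out a mouse, with adjusted p-values up to 0.0777 and 0.0837, and neither other probe set of Ppp2r2a passed.

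Calcineurin removes the PKA phosphate from DARPP-32, and 2 of 7 of its genes were lower and none higher (all genes: 5.13% lower and 7.29% higher). Ppp3ca, its main catalytic subunit in brain, fell by 0.49 ± 0.082 (limma adjusted p = 0.00543) and the regulator Rcan2 by 0.25 ± 0.068 (adjusted p = 0.0424). The Rcan2 call was lost whichever mouse was left out (adjusted p of 0.0631 to 0.0986), with median centring (0.0620) and with the cortical level as a covariate (0.193), and its other probe set did not pass. Among 8 measured genes of kinases that phosphorylate DARPP-32 at other sites, 1 was lower: Cdk5r2, the p39 activator of the kinase Cdk5, fell from 9.34, 9.41, 9.18 and 9.04 to 8.67, 8.40, 8.46 and 8.43, by 0.75 ± 0.10 (adjusted p = 0.00216).

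Of 6 measured relatives and substrates of STEP, 2 were lower (all genes: 5.13% lower and 7.29% higher). Grin2b, the NMDA receptor subunit whose tyrosine phosphates STEP removes, fell by 1.03 ± 0.16 (limma adjusted p = 0.00386), with R6/2 values of 8.29, 8.10, 8.95 and 8.30 against wild-type values of 9.36 to 9.52. None of its other 3 probe sets passed: 2 were dim, and 1442370_at, well above background, gave -0.25 (adjusted p = 0.414). Ptk2b, the kinase Pyk2, fell by 0.30 ± 0.080 on its brightest probe set (adjusted p = 0.0421), a call that was lost in 7 of the 8 fits that left out a mouse. Over the mean of its probe sets the difference was 0.0018, where the second probe set, 1442927_at, is near background and read 4.21 in wild-type mouse 42 against 5.24 to 5.71 in the other wild-type mice. Without mouse 42 that probe set differed by -0.0038 in place of 0.30, in a fit chosen for it after its values were seen. Of 6 measured CREB factors, Creb1 and Crebbp rose by 0.36 and 0.29 and Crtc1 fell by 0.35. With the cortical level as a covariate the differences were 0.39, 0.25 and -0.34, with larger standard errors. None of them passed there (limma adjusted p of 0.0609, 0.209 and 0.188). Crebbp and Crtc1 each missed in 7 of the 8 fits that left out a mouse, with adjusted p-values up to 0.108 and 0.115, and Creb1 over the mean of its probe sets, most of them dim, was 0.12 (adjusted p = 0.209). Of the other probe sets, 1 of 5 of Creb1 passed as higher (0.48), and so did 2 of 3 of Crebbp (0.36 and 0.40). Of the other 2 of Crtc1, 1 that is dim passed as lower (-0.38), and 1 gave 0.19 and did not pass.

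Of 8 measured genes next to PKA in the cAMP pathway of medium spiny neurons, 6 were lower and none higher. This list shares genes, Drd1 and Pde10a among them, with the medium spiny neuron markers above, so those counts are not separate observations. Adcy5, the main striatal adenylyl cyclase, fell by 1.23 ± 0.13, and the phosphodiesterase genes Pde10a and Pde1b by 1.13 ± 0.12 and 0.96 ± 0.075 (limma adjusted p of 0.000671, 0.000860 and 0.000243). Of the other 3 probe sets of Adcy5, 1 passed, at -0.42, and the rest were dim and did not pass. All 4 other probe sets of Pde10a passed as lower, at -1.32 to -1.71. The median difference of these 8 genes was -0.88, against 0.34 for the 3 other PKA subunit genes. Among all 18193 genes, 5.13% passed as lower and 7.29% as higher. Over all 10 lists, 19 of 90 measured genes were lower, 10 higher and 61 did not pass, with a median of -0.055. Without wild-type mouse 48 or R6/2 mouse 70, 11 were lower and 4 higher. Without wild-type mouse 54, R6/2 mouse 64 or R6/2 mouse 78, 12 were lower, and 7, 6 and 4 higher. With the cortical level as a covariate 13 were lower and 1 higher. Over all probe sets that fit took the lower calls from 2069 to 918 and the higher calls from 2497 to 1018. No test was made of any list.

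**Figure D5:**
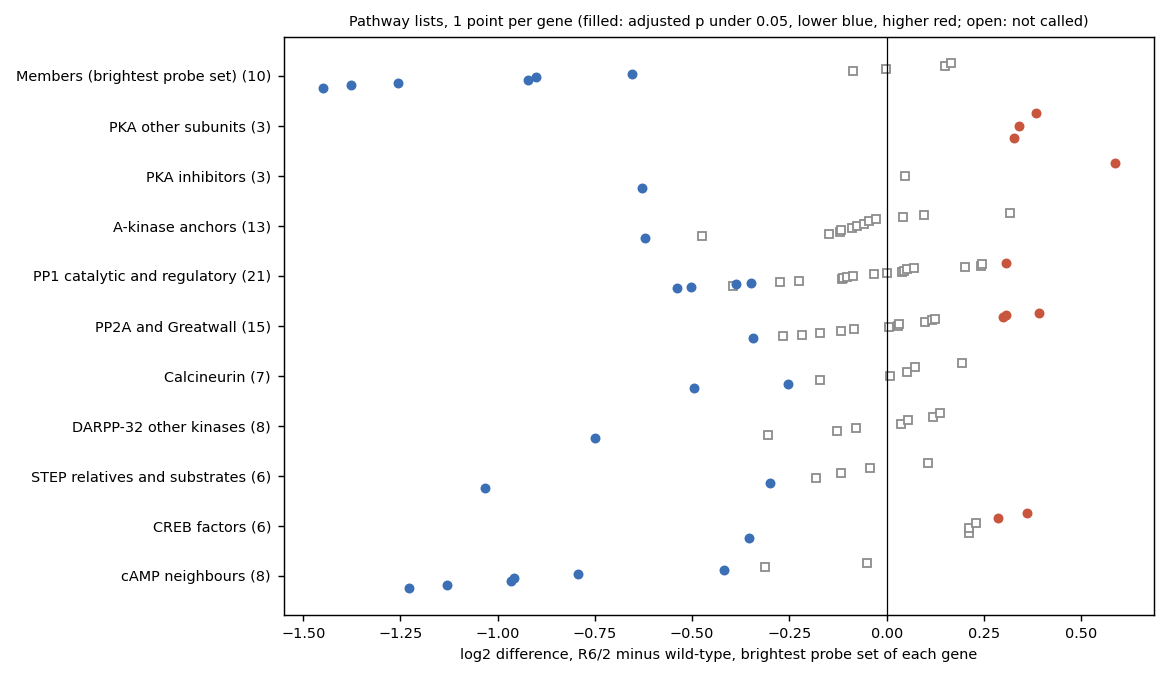
Log2 difference, R6/2 minus wild-type, of each measured gene of the 10 pathway lists at its brightest probe set, 1 point per gene, with filled points where the gene passed the adjusted test. The top row holds the 10 genes described first. The 3 other PKA subunit genes lie together above 0 and most cAMP neighbours lie well below it, while the phosphatase lists spread on both sides.

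The genes whose values over the 8 mice were most like those of Ppp1r1b, among 18183 genes outside the 10, were Ddn, Sorcs2, Shank3, Drd1 and Npas2, with Pearson correlations of 0.996, 0.996, 0.995, 0.994 and 0.993. The 8 points share the gap between the genotypes, which makes such values high for any gene that fell evenly. With each genotype's mean subtracted, the correlations were 0.958, 0.950, 0.993, 0.909 and 0.869. The genes were chosen by their correlation over these same 8 mice, so these values too are raised by the choice. Shank3, a scaffold gene of the postsynaptic density, read 10.27, 10.68, 10.63 and 10.32 in wild-type and 9.77, 9.59, 9.67 and 9.65 in R6/2 mice. As in Ppp1r1b, mice 48 and 54 were the higher pair of wild-type mice and mouse 64 the highest R6/2 mouse.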

How the data were processed

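Biotin-labelled striatal RNA was hybridised to 1 Affymetrix array for each mouse (labels' protocols). The authors deposited log2 values per probe set, which per the submitters' processing notes came from RMA and affy; versions are not given in the sources used here. RMA corrects for background, puts arrays on a common distribution and combines the probes of each set, and it compresses differences of dim probe sets. The table held 45101 probe sets with values of 2.57 to 14.16 outside the 64 controls, which were left out. Of the 45037 tested, 34945 had 1 gene symbol in the platform annotation, 932 had several and 9160 none. No probe set of several symbols was named.

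Differences (R6/2 minus wild-type) were fitted over all 45037 with limma 3.58.1 in R 4.3.3 (lmFit, eBayes), adjusted by Benjamini-Hochberg, and called at an adjusted p under 0.05. Errors are moderated standard errors, intervals are 95%, and precision is limited by having 4 arrays in each group. Pathway genes were taken at the probe set with the highest mean, and the text names up to 3 passing genes of each list by adjusted p. Markers named beside a count were named after their values were seen. The members and all lists were chosen with earlier results of these data known. The fit was tested on simulated data. Alternatives were other normalizations, filters, moderation and probe-set rules, a cortical covariate and leaving out each mouse.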

Additional observations from a re-analysis of the deposited data

Results flagged for a closer look

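In 3 of the 54 groups of 4 mice examined over the 27 probe sets, 1 mouse lay far from the other 3, where the gap to the nearest mouse, as a share of the group's range, exceeded Dixon's 95% critical value. Chance alone flags about 1 in 20 groups. For Ppp1r16b 1455080_at, wild-type mouse 42 read 10.87 against 9.88 to 9.92 in the other wild-type mice. In the same probe set, R6/2 mouse 65 read 7.943 against 9.15 to 9.23 in the other R6/2 mice. For Prkar2b 1438664_at, R6/2 mouse 65 read 10.18 against 9.65 to 9.69. Without mouse 42 the Ppp1r16b difference was -1.01 (limma adjusted p = 0.0550), and without mouse 65 it was -0.94 (adjusted p = 0.0402).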

How the results depend on the processing

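Of the 11 lower probe sets, 9 passed in the same direction in every alternative run for them (16 to 18 each, limma adjusted p at most 0.0382). The exceptions were Ppp1r16b 1455080_at and Arpp21 1442121_at. Ppp1r16b also missed with an intensity trend and robust moderation (adjusted p = 0.0770) and with no moderation (0.143). Member probe sets called lower numbered 6 with 1 probe set per gene, and 9 to 11 when a mouse was left out. Those called higher numbered 3 with array weights, 0 with no moderation or 1 probe set per gene, and 0 to 1 without a mouse. Pathway genes called lower numbered 11 with no moderation and 11 to 21 without a mouse, and those called higher 5 with no moderation, 1 with the cortical covariate and 4 to 8 without a mouse. Over all features, the 2069 lower calls became 1127 with 1 probe set per gene, 1088 with the mean of each gene's probe sets, 918 with the cortical covariate, 873 with no moderation and 1358 to 2084 without a mouse. The 2497 higher calls became 1654, 1587, 1018, 988 and 1287 to 2372 in that order. Among the alternatives planned for them, signs turned only for differences that had not passed, and for Ptk2b, at 0.0018 over the mean of its probe sets. Arpp21 1419028_at was 0.14 and Prkaca 1450519_a_at 0.047 with the covariate, and with median centring Prkaca 1450519_a_at was 0.0033. Prkar2b 1438664_at was 0.010 with median centring, 0.014 with quantile normalization and 0.0023 over the gene's mean. Leaving out a mouse moved Prkaca 1450519_a_at between -0.047 and 0.019 and Prkar2b 1438664_at between -0.13 and 0.047. The difference between Prkar1b 1434325_x_at and 1440132_s_at was 0.027 with quantile normalization. Leaving out wild-type mouse 42, chosen for 7 further probe sets after seeing the data, turned Ppp1r3c 1425631_at to -0.42, Rcan2 1450243_a_at to -0.21 and Ptk2b 1442927_at to -0.0038. The causes were not tested. Of the 28 other named genes, 12 passed in every alternative, and all 12 were lower. From the pathway lists these were Ppp1ca, Ppp3ca, Cdk5r2, Grin2b, Adcy5, Pde10a and Pde1b. The rest were Ddn, Sorcs2, Shank3, Drd1 and Npas2, chosen for their likeness to Ppp1r1b in these same mice. No named gene that was called higher passed in every alternative. No paired analysis was possible because the genotypes share no mouse numbers. Signal near background limits Ppp1r16b 1425414_at and Arpp21 1440429_at.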

Other observations

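Wild-type mouse 42 stood more than 0.5 (log2) below the other wild-type mice in 7 further probe sets of 7 of the named pathway genes, a margin chosen after seeing the data. These were probe sets of Prkacb, Pkia, Akap5, Ppp1r3c, Ppp2r3a, Rcan2 and Ptk2b, so most lie outside the PKA genes. Prkacb 1420610_at read 5.07 in mouse 42, 6.36 to 6.78 in the other wild-type mice and 6.93 to 7.24 in R6/2 mice. Its difference of 0.86 did not pass (limma adjusted p = 0.112), and without mouse 42 it was 0.48 and passed (adjusted p = 0.0317). Pkia 1420858_at read 5.91 in mouse 42 and differed by 0.99 (adjusted p = 0.0218), or by 0.71 without that mouse (adjusted p = 0.00179). Mouse 42 also had the lowest array weight, 0.488.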
